A study of Mus musculus with 6 samples.

Results

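The genes described here are 34 genes of mitotic motors, spindle proteins, chromosome condensation and cell division, listed by function. These genes and the other lists were chosen with earlier results of these data known. Their shares beside those of all tested genes are therefore a description and not independent support. All 34 had at least 1 probe set (a set of array probes for a transcript) with a single gene symbol. The probe set of highest mean stood for each gene, and 33 of the 34 passed the filter on dim probe sets, out of 13232 genes tested and 18192 on the array. Kif15, a plus-end motor that backs up the main spindle motor, did not pass: its only probe set had a mean of log2 5.10, just under the filter at 5.12. The dimmest gene kept was Cep55 at 5.55.

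Expression was measured on 6 Affymetrix mouse arrays of marrow cells that had been sorted for Ter-119, a red cell lineage antigen, together with the transferrin receptor CD71. The 3 arrays labelled Rb-null come from mice with EpoR-GFPcre on 1 allele and Rb fl/fl. The 3 controls carry the same EpoR-GFPcre allele with Rb fl/+, so Cre was present in every sample and the controls keep a single unfloxed Rb1 allele. Cre is driven from the erythropoietin receptor locus and therefore acts in cells that express that receptor. The age of the mice, and whether each array holds RNA of a separate animal, are not stated in the labels, so the spread between arrays may be technical.

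Kinesins are motors that walk along microtubules on ATP, and the mitotic ones push spindle poles apart, carry chromosomes and organise the antiparallel microtubules between the separating chromosome sets. Condensin is a ring-shaped complex that folds chromatin loops into compact chromosomes, working with topoisomerase II. Cytokinesis then draws a contractile ring around the central spindle and severs the daughter cells. Most genes of this kind are transcribed late in the cell cycle, through promoters bound by the MuvB core together with B-Myb and Foxm1 in dividing cells and with E2F4 and the Rb relatives p107 and p130 in quiescent ones. Their expression is low in quiescent cells. Erythroid precursors divide several times before they leave the cycle and shed the nucleus, and Rb restrains the E2F factors that drive entry into S phase.

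RefSeq promoter windows, 250 bases before to 50 after an annotated start on build GRCm38.p6, matched 30 of the 34 genes. Smc4, Kif20a, Tpx2 and Stmn1 were not matched. The letters TTTGAA, the core of the cell cycle genes homology region through which the MuvB complex contacts DNA, lay on either strand in 25 of the 30 (83.3%), against 5466 of all 27025 genes with a window (20.2%) and 14.9% of the 10639 tested genes with a window. Within 50 bases of the start on either side, 19 of 30 (63.3%) held it, against 5.72% of all genes. CCAAT, the letters read by NF-Y, were in 18 of the 30, against 41.1% of all genes. The related letters TTTAAA were in 16.7%, against 14.9%. The E2F letters TTTCCCGC were in 2 of the 30 (6.67%), against 1.24% of all genes and 2.19% of tested genes with a window. GGCGGGAA was in 1 of the 30 (3.33%), against 2.52% of all genes and 4.38% of tested ones. These last motifs share letters and can overlap each other. A match is a description of the letters and not a measured binding site.

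The 150 bases just before the start are shown for Mki67, Top2a and Kif11, whose Rb-null arrays all stood above all control arrays and whose TTTGAA lies wholly before the start, and for Cit, the gene with the lowest fold change, which has no TTTGAA in its window. Capitals mark TTTGAA (or TTCAAA, the same letters on the other strand), and CCAAT (or ATTGG); the other 3 motifs do not occur in these stretches. Mki67 lies at chr7:135716380-135716529 on the minus strand, Top2a at chr11:99024190-99024339 on the minus strand, Kif11 at chr19:37376232-37376381 on the plus strand and Cit at chr5:115845506-115845655 on the plus strand.
Mki67: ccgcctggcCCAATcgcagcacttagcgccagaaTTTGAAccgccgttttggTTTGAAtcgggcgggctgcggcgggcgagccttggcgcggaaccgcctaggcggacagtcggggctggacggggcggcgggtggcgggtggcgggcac
Top2a: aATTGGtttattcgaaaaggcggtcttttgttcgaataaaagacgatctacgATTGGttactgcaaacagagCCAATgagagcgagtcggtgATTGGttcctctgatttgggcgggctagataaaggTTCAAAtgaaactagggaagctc
Kif11: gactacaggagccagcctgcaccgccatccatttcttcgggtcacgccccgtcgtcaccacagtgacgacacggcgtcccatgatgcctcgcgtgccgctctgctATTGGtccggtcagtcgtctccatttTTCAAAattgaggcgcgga
Cit: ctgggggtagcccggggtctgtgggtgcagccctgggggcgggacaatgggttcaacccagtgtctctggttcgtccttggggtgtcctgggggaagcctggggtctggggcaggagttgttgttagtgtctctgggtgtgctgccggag

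In the stretches of Top2a and Kif11 the motif begins 23 and 19 bases before the start, and in both it runs on the minus strand of the gene. In Mki67 it occurs at 116 and at 98 bases before the start. Prc1, whose groups also did not overlap, is not shown. Its TTTGAA begins 30 bases before its later annotated start and 5 bases before its earlier start, which it crosses. The 24 tested genes with TTTGAA had a median log2 fold change of 0.24, 18 of them positive, and the 5 without it, Cit, Kif18a, Nusap1, Ncaph and Tacc3, had a median of 0.14, 4 of them positive. With 5 genes in the second set this difference was not tested. Apart from Cit, the genes with a negative fold change, Kif2c, Kif20b, Kif23, Ckap5, Ncapg and Cep55, all hold TTTGAA in a window.

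The arrays numbered 3 stood apart from the other 4 in both groups, on a first principal component holding 51.3% of the variance, and the mean signal of their 18S ribosomal RNA controls was 1231 (control 3) and 542 (Rb-null 3), while it was 32.6 to 66.2 elsewhere. Arrays that share a replicate number deviated together from their group means. Correlations across genes were 0.636, 0.615 and 0.653 between the control and the Rb-null array of a number. Differences within a number are therefore given as pairs 1, 2 and 3. Rb1 itself read 1379 to 2760 on control and 2897 to 4045 on Rb-null arrays. The labels do not place this probe set inside or outside the floxed stretch, so its signal checks no label. Of the erythroid markers, the brightest included Alas2 (8760 to 10602), Slc4a1 (9114 to 10220) and Tfrc (6086 to 8506), while the only Hba-a1 probe set with a single symbol read at most 27.0. The 16 measured of 20 erythroid markers summed to 64310 to 70930 on control and 64547 to 77576 on Rb-null arrays. S100a8, a granulocyte protein, was bright throughout (9111 to 12488).

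The mitotic genes were mostly higher in Rb-null cells, by small amounts, and no single one passed the test. Of the 33 tested, 26 had a positive log2 fold change and 7 a negative one, with a median of 0.26, whereas over all tested genes the median was -0.04 and 45.4% were positive. The pair medians were 0.29, 0.22 and 0.22. In a bulk sample, a difference in the mix of cells and a difference in mitotic RNA per cell cannot be told apart. Limma, adjusting over all 13232 genes, called 0 of the 33 and 0 of all genes (0%), and with the replicate number as a block again 0 of each (0%). At unadjusted p under 0.05 there was 1 gene, Stmn1, beside 2.55% of all tested genes in that direction. With the block there were 7 higher, Kifc1, Prc1, Ckap2, Stmn1, Smc4, Mki67 and Racgap1, beside 7.77% of all tested genes, and 1 lower, Cit, beside 9.14%.

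Every Rb-null array lay above every control array for 7 of the 33 genes (21.2%), Kif4, Kif11, Prc1, Stmn1, Top2a, Mki67 and Racgap1. Among all tested genes 5.13% did so. The reverse, every Rb-null array below every control array, was seen for 0 of the 33 and for 4.78% of all tested genes. Within pairs, 20 of 33 were higher in each of the 3 pairs (60.6%), against 18.4% of all tested genes, and 3 were lower in each, Kif2c, Kif20b and Cit, against 24.1%. Of the 7 genes without overlap, Prc1, Stmn1, Top2a, Mki67 and Racgap1 were also free of overlap on the deposited scale before normalization. Kif4 and Kif11 overlapped there, and Smc4 and Ckap2 were free of overlap there but not after normalization.

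**Figure D1:**
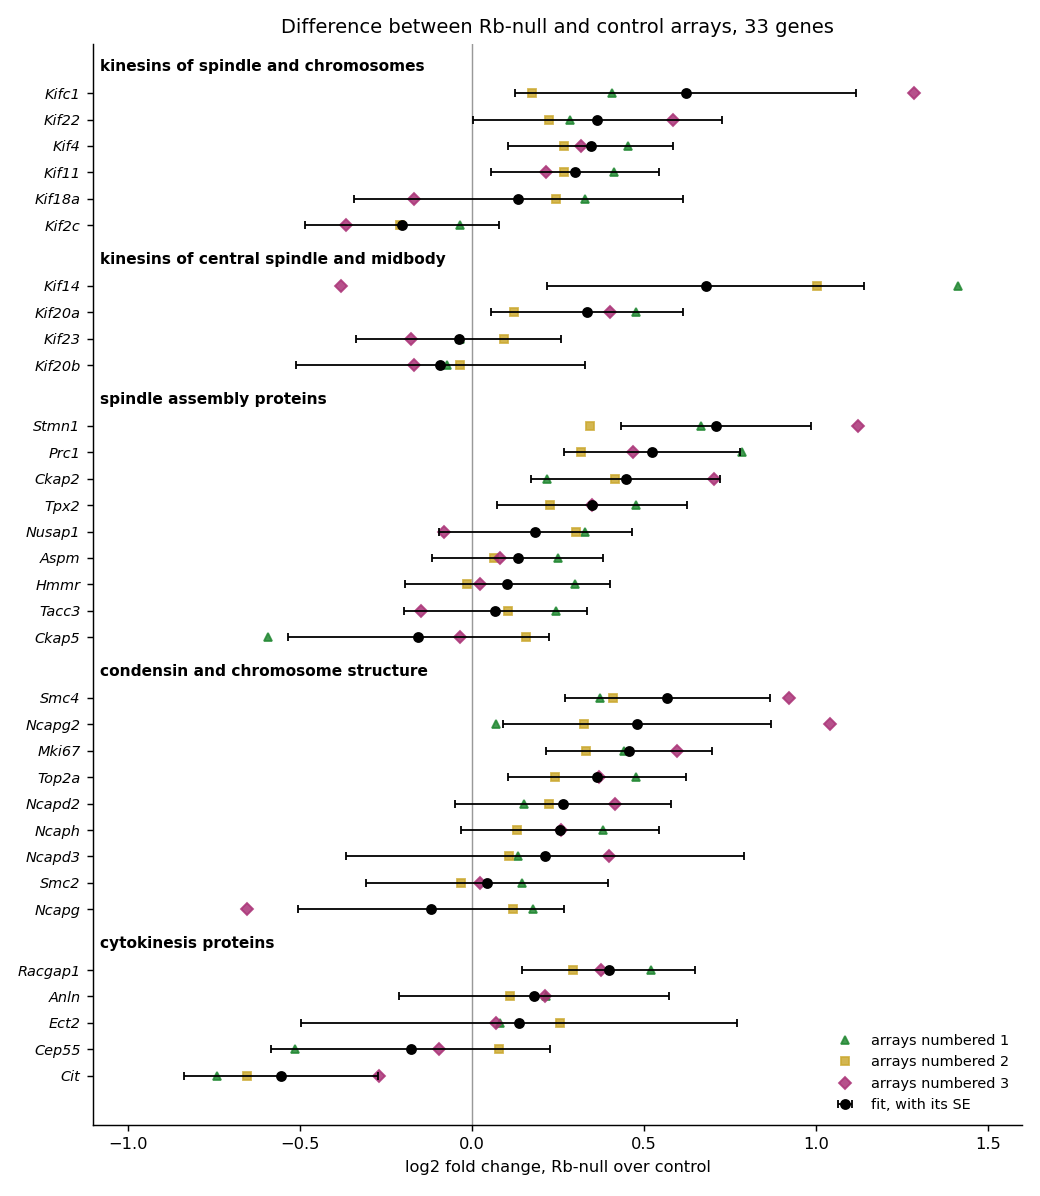
Log2 fold change of Rb-null over control for the 33 genes, by role. Black points and bars are the limma fit and its standard error (3 arrays a group), and coloured points are the differences between arrays of the same number; 26 of the black points lie right of 0, and those of Stmn1 (0.71) and Kif14 (0.68) lie farthest right and that of Cit (-0.55) farthest left.

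The size of these differences has to be read beside the spread between arrays of 1 group. The median absolute log2 fold change was 0.26, while the median range over the 3 controls was 0.55. In 8 genes the absolute fold change exceeded the range of the controls. In 22 of the 33 genes control 3 was the lowest control, and in 22 Rb-null 3 was the lowest Rb-null array. Rb-null 1 held the highest level of 19 genes and control 3 the lowest level of 16. Median levels relative to each gene's mean were 0.12, -0.03 and -0.32 on controls 1, 2 and 3, while Rb-null 1, 2 and 3 had 0.34, 0.16 and -0.09. So the arrays numbered 3 lay lowest in each group, and the Rb-null array lay above its control in each pair. Without control replicate 3 the median log2 fold change was 0.10, and without Rb-null replicate 1 it was also 0.10. Kif18a, Hmmr, Smc2, Ncapd3, Anln and Ect2 turned negative when either of these arrays was left out and its partner kept. Among the 21 genes whose sign held whichever array was left out, the value nearest 0 was less than the full value by over 1.5 times in 13. Without control replicate 3 the log2 fold change was 0.047 for Kif22, 0.054 for Ncapg2, 0.051 for Ncapd2, 0.17 for Kif20a and 0.37 for Smc4. Without Rb-null replicate 1 it was 0.0093 for Nusap1, 0.052 for Aspm, 0.099 for Ncaph, 0.23 for Top2a and 0.24 for Kif14. Without Rb-null replicate 3 it was 0.14 for Kifc1 and -0.048 for Kif2c, and without control replicate 1 it was 0.18 for Tpx2. The other 8, Cit, Ckap2, Kif11, Kif4, Mki67, Prc1, Racgap1 and Stmn1, stayed within that factor on this side.

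**Figure D2:**
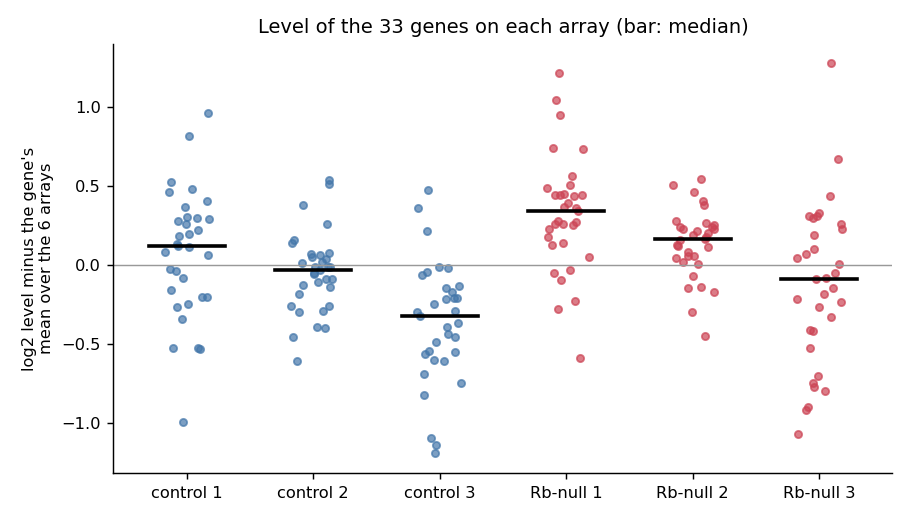
Level of each of the 33 genes on each array, as log2 level minus that gene's mean over the 6 arrays, with the median as a black bar. The arrays numbered 3 have the lowest median of each group, and each Rb-null median (0.34, 0.16, -0.09) lies above that of the control of the same number (0.12, -0.03, -0.32).

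Among the kinesins of spindle and chromosomes, 5 of the 6 tested were positive and 4 were higher in each pair, with a median of 0.32. Kif11, the tetrameric motor that slides spindle poles apart, read 671, 814 and 574 on controls 1, 2 and 3, against 962, 1001 and 689 on Rb-null 1, 2 and 3. After normalization the Rb-null arrays all lay above the controls, although on these deposited values Rb-null 3 lay below control 2. The mean intensity was 686 ± 120 in controls and 884 ± 170 in Rb-null cells (SD, n = 3 each), with a log2 fold change of 0.30 (SE 0.24, limma adjusted p = 1.00).

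Kif4, a chromosome-arm motor that also works at the central spindle, read 411, 510 and 360 on controls, against 613, 620 and 450 in Rb-null cells. As for Kif11, only the array numbered 3 fell into the control range on the deposited scale. Its log2 fold change was 0.35 (SE 0.24, limma adjusted p = 1.00), with pair differences of 0.45, 0.27 and 0.32. Kifc1, the minus-end motor that draws spindle poles together, read 128, 301 and 217 on controls, against 172, 348 and 560 in Rb-null cells. Its groups overlapped, and its difference was uneven, with pairs at 0.41, 0.17 and 1.29 and a log2 fold change of 0.62 (SE 0.50). Kif22, a chromosome-arm motor, had 0.36 (SE 0.36) and was higher in each pair. Kif18a, which dampens chromosome oscillation at the metaphase plate, had 0.14 (SE 0.48) with pair 3 negative. Kif2c, the microtubule depolymerase of centromeres, was lower in each pair, at -0.20 (SE 0.28). Kif15, below the filter, read between 0.85 and 54.0, with no order by group.

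The kinesins of central spindle and midbody were divided, with 2 of 4 positive and a median of 0.15. Kif20a, which carries the chromosomal passenger complex to the central spindle, read 260, 320 and 161 on controls, against 381, 355 and 219 in Rb-null cells. It was higher in each pair, although Rb-null 3 lay below control 1 and control 2. Its log2 fold change was 0.33 (SE 0.28). Kif14, a partner of Prc1 and citron kinase at the midbody, read 33.3, 23.1 and 20.8 on controls, against 110, 65.5 and 13.2 in Rb-null cells. Rb-null 1 and 2 were brighter than every control, and Rb-null 3 was the dimmest of all 6. The log2 fold change was 0.68 (SE 0.46, limma adjusted p = 1.00), for a probe set close to the filter, an intensity of 18.9. Kif23, the motor subunit of centralspindlin, had -0.04 (SE 0.30), and Kif20b, an abscission motor, -0.09 (SE 0.42).

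Centralspindlin pairs Kif23 with the GTPase-activating protein Racgap1, and those partners had different values on their brightest probe sets. Racgap1 read 487, 541 and 488 on controls, against 758, 673 and 654 in Rb-null cells, a set of values in which the lowest Rb-null array stood above the highest control. The mean intensity was 505 ± 30.6 in controls and 695 ± 55.0 in Rb-null cells (SD, n = 3 each), with a log2 fold change of 0.40 (SE 0.25, limma adjusted p = 1.00). Kif23 read 405, 329 and 437 on controls, against 428, 358 and 381 in Rb-null cells, fully interleaved. The difference between these genes' fold changes was not tested. A second, dimmer Racgap1 probe set gave 0.13, and the dimmer Kif23 probe sets gave 0.26 and 0.05. The contrast was therefore not seen on the dimmer probe sets.

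**Figure D3:**
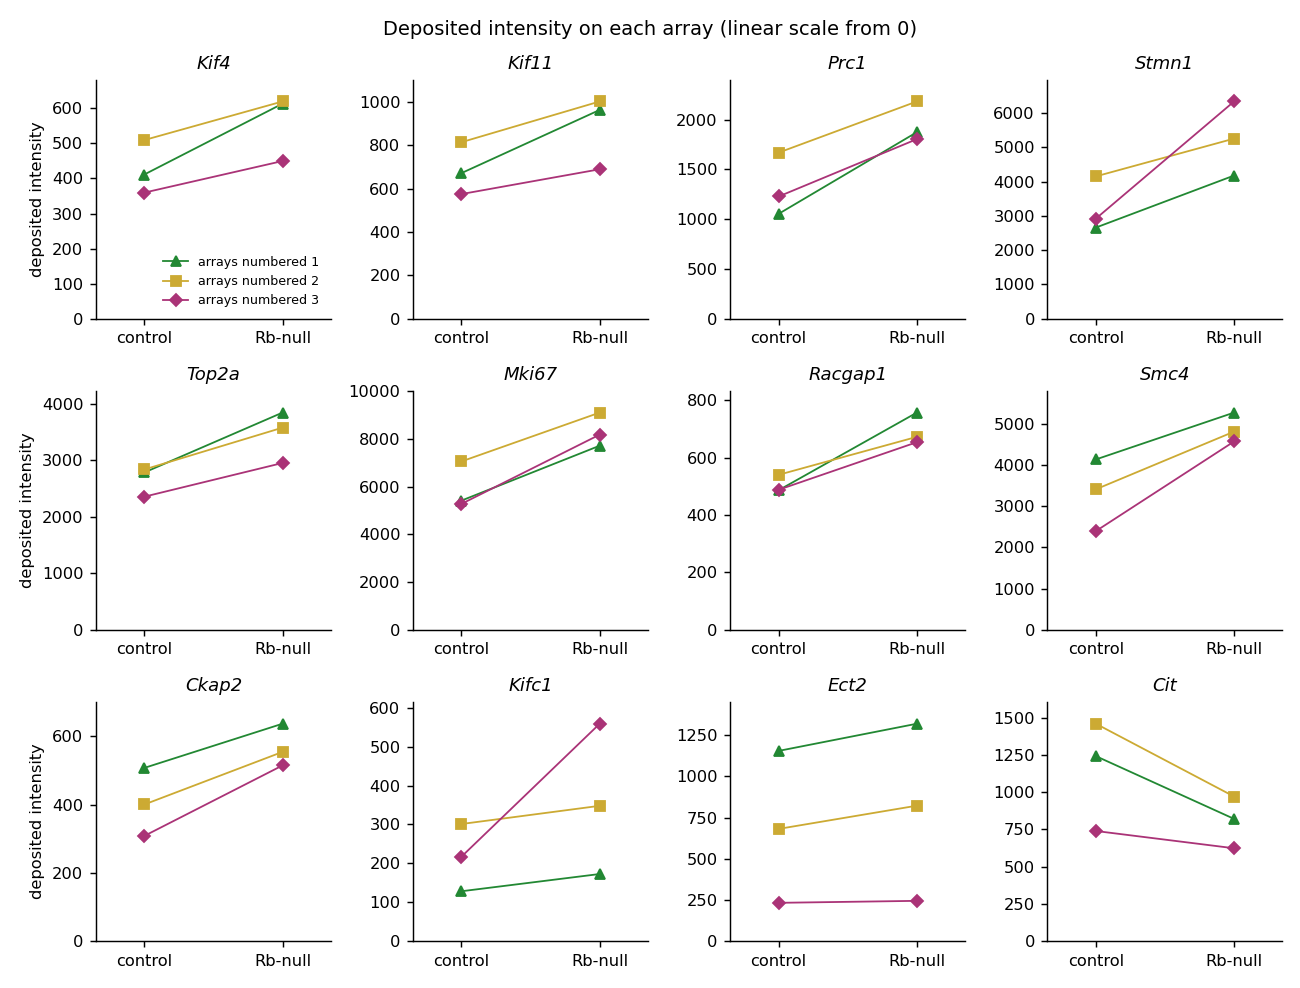
Deposited intensity (linear axis from 0) of 12 genes on the 6 arrays, with lines joining arrays of the same number: the 7 genes free of overlap after normalization, then Smc4, Ckap2, Kifc1, Ect2 and Cit. In Stmn1, Mki67, Prc1 and Racgap1 all 3 lines slope upward and the groups part, in Ect2 the numbers differ far more than the groups, and in Cit all 3 lines slope downward.

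Spindle assembly proteins had 8 of 9 positive, 5 higher in each pair and a median of 0.18. Stmn1, stathmin, which binds tubulin dimers and makes microtubules unstable, had the largest fold change of the 33. It read 2658, 4152 and 2918 on controls, against 4176, 5255 and 6339 in Rb-null cells, the lowest Rb-null array just above the highest control. The mean intensity was 3242 ± 798 in controls and 5257 ± 1081 in Rb-null cells (SD, n = 3 each). The log2 fold change was 0.71 (SE 0.28, limma adjusted p = 1.00; with the block adjusted p = 0.191). A second, dimmer Stmn1 probe set gave 0.64 (SE 0.56), with overlap between the groups.

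Prc1, which crosslinks antiparallel microtubules in the central spindle, read 1054, 1669 and 1228 on controls, against 1875, 2184 and 1805 in Rb-null cells. The groups did not overlap. The log2 fold change was 0.52 (SE 0.26, limma adjusted p = 1.00), and its second probe set gave 0.51, also without overlap. Ckap2, a microtubule stabiliser of spindle poles, read 507, 400 and 308 on controls, against 637, 554 and 515 in Rb-null cells. Its log2 fold change was 0.45 (SE 0.27), with every pair positive. Tpx2, the activator of Aurora A on spindle microtubules, had 0.35 (SE 0.28) and was also higher in each pair. Its dimmer probe sets gave less, at 0.07, 0.01 and 0.14. Aspm, which focuses spindle poles, had 0.13 (SE 0.25) and was higher in each pair, as were 4 of its 5 probe sets.

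The remaining spindle genes differed in sign between pairs on their brightest probe sets. Nusap1, which bundles microtubules around chromosomes, had 0.18 (SE 0.28) and Hmmr, a spindle pole adaptor of Tpx2, 0.10 (SE 0.30). Tacc3, which crosslinks kinetochore fibres, had 0.07 (SE 0.27). Dimmer probe sets gave 0.41 for Nusap1, 0.24 to 0.58 for Hmmr, and 0.02 and -0.25 for Tacc3. Ckap5, the microtubule polymerase that Tacc3 recruits, had -0.16 (SE 0.38) on its bright probe set. That probe set read 926, 543 and 920 on controls, against 665, 613 and 906 in Rb-null cells, interleaved. A dimmer Ckap5 probe set read 93.1, 143 and 55.9 on controls, against 177, 218 and 129 in Rb-null cells and had a log2 fold change of 0.81, without overlap after normalization. The Ckap5 probe sets therefore disagree.

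Genes of condensin and chromosome structure had 8 of 9 positive, 7 higher in each pair and a median of 0.26. Mki67, the Ki-67 protein that coats mitotic chromosomes and keeps them apart, read 5414, 7054 and 5276 on controls, against 7714, 9101 and 8178 in Rb-null cells. All 3 Rb-null values exceeded the highest control. The mean intensity was 5915 ± 989 in controls and 8331 ± 706 in Rb-null cells (SD, n = 3 each), and the log2 fold change was 0.46 (SE 0.24, limma adjusted p = 1.00). Top2a, the topoisomerase that untangles sister chromatids, read 2786, 2839 and 2357 on controls, against 3847, 3580 and 2954 in Rb-null cells. Here too the groups were separate, with the closest values 2839 and 2954. The log2 fold change was 0.36 (SE 0.26, limma adjusted p = 1.00), and a second, dimmer probe set gave 1.09. That probe set read 357, 421 and 96.1 on controls, against 920, 557 and 327 in Rb-null cells, with Rb-null 3 below control 1 and control 2 on this scale and no overlap after normalization.

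Condensin is built on a pair of ATPases, Smc2 and Smc4, which had different values. Smc4 read 4132, 3408 and 2394 on controls, against 5269, 4808 and 4568 in Rb-null cells. Its groups were apart on this scale and overlapped after normalization, with a log2 fold change of 0.57 (SE 0.30, limma adjusted p = 1.00), and its other probe sets gave 0.40 and 0.46. Smc2 read 1733, 1973 and 945 on controls, against 1986, 2117 and 969 in Rb-null cells, interleaved. Its log2 fold change was 0.05 (SE 0.35), and its 4 other probe sets gave 0.07 to 0.21. The difference between Smc2 and Smc4 was not tested.

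The other condensin subunits among these genes belong to complex I (Ncapd2, Ncapg, Ncaph) or complex II (Ncapd3, Ncapg2). Ncaph2, also of complex II, was listed with the other mitosis genes below. Its log2 fold change was 0.14 (SE 0.30), and it was higher in each pair. In complex I, Ncapd2 had a log2 fold change of 0.26 (SE 0.31) and Ncaph 0.26 (SE 0.29), each higher in every pair. Ncapg had -0.12 (SE 0.39), with pairs at 0.18, 0.12 and -0.65. In complex II, Ncapg2 had 0.48 (SE 0.39), with pairs at 0.07, 0.33 and 1.04, and Ncapd3 0.21 (SE 0.58), higher in each pair. Ncapd3 shows how far the arrays of 1 group differ, at 1410, 970 and 308 on controls, against 1667, 1066 and 408 in Rb-null cells. A dimmer Ncapd3 probe set, at 126, 101 and 44.4 on controls and 234, 171 and 203 on Rb-null arrays, did not overlap and gave 1.12.

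The cytokinesis proteins included the gene with the lowest value. Cit, citron kinase, which holds the midbody together during abscission, read 1244, 1462 and 740 on controls, against 821, 972 and 624 in Rb-null cells. Control 3 lay among the Rb-null values, so the groups overlapped, but each pair was lower, at -0.74, -0.65 and -0.27. The log2 fold change was -0.55 (SE 0.28, limma adjusted p = 1.00; with the block adjusted p = 0.213), and the other Cit probe sets past the filter gave -0.01, -0.10 and -0.66. Anln, anillin, the scaffold of the contractile ring, had 0.18 (SE 0.39) and was higher in each pair. Ect2, the exchange factor that switches on RhoA for furrowing, read 1155, 681 and 231 on controls, against 1320, 822 and 244 in Rb-null cells. It was higher in each pair by 0.08, 0.26 and 0.07, small beside the distance between the arrays of either group. Cep55, which recruits the abscission machinery to the midbody, was dim, at most 55.2, and had -0.18 (SE 0.41).

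Several genes have more than 1 probe set, and the choice of probe set matters for some. The 34 genes had 85 probe sets, 80 of them past the filter, of which 65 had a positive log2 fold change and 44 were higher in each pair. Among the 25 genes with several such probe sets, 8 had opposite signs, Kif2c, Kif11, Kif20b, Kif23, Ckap5, Tacc3, Ncapg and Cep55. Kif11 is the one among them whose groups did not overlap, and its probe sets gave 0.30, -0.05 and 0.65. The representative probe sets of 8 tested genes carry the suffix _s_at or _x_at, which the manufacturer gives to probe sets that may detect related transcripts, among them those of Stmn1, Prc1 and Kifc1.

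**Figure D4:**
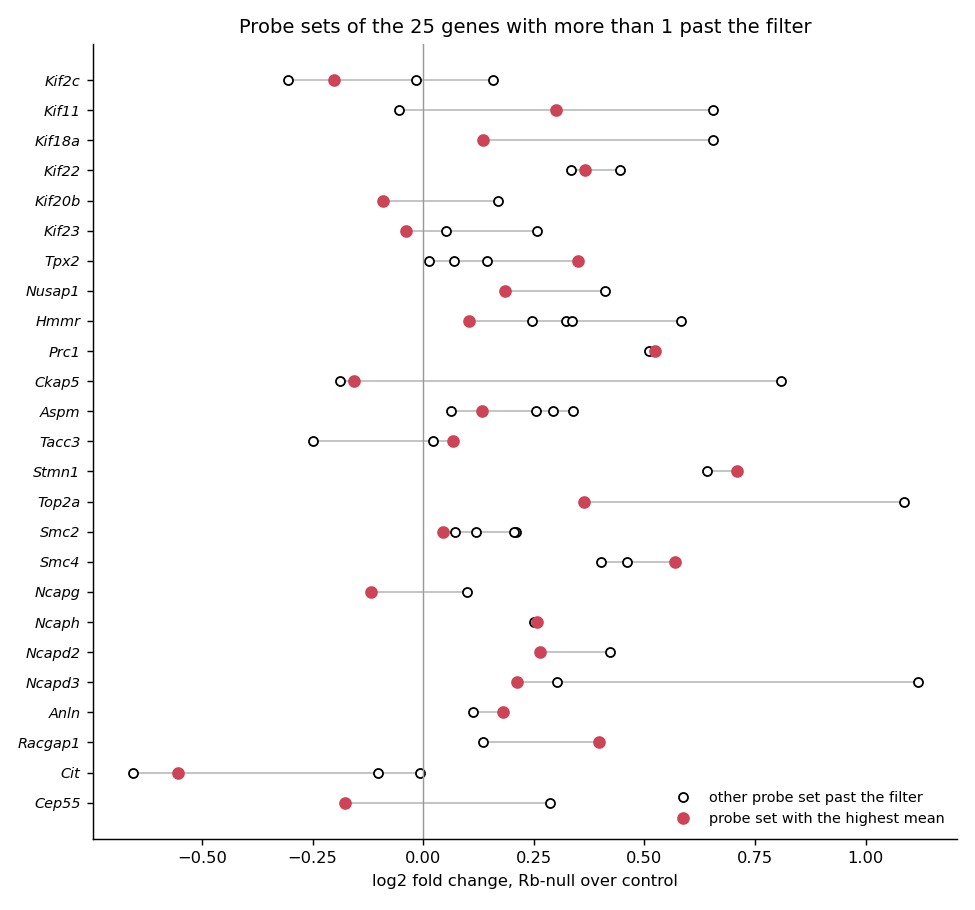
Log2 fold change of Rb-null over control for each probe set past the filter, for the 25 genes that have more than 1. Red points are the probe sets with the highest mean and open points the others; both Prc1 probe sets and all 3 of Kif22 lie right of 0, and the open points of Ckap5 (0.81), Top2a (1.09) and Ncapd3 (1.12) lie well right of the red ones.

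Other gene lists, compiled by function, were set beside these genes. Of 33 other mitosis genes 32 were tested, with a median of 0.17 and 25 positive. They cover kinases, kinetochore, checkpoint and anaphase control, and also include the kinesins Kif18b and Kif24 and the condensin II subunit Ncaph2. This list therefore shares gene families with the genes described here. All Rb-null arrays stood above all control arrays in 4 (12.5%, against 5.13% of all tested genes). They stood below in 1, against 4.78% of all tested genes. In each of the 3 pairs 13 were higher (40.6%, against 18.4% of all tested genes) and 3 lower (against 24.1%). Limma called 0 of the 32 in either direction. At unadjusted p under 0.05 with the block, 7 were higher and 0 lower, beside 7.77% and 9.14% of all tested genes. Without the block there were 2, both higher, beside 2.55% of all tested genes in that direction. They were Kif18b, a depolymerising kinesin, at 0.63 (SE 0.26), and Ndc80, the outer kinetochore protein that grips microtubules, at 0.69 (SE 0.29), followed by Ube2c, a ubiquitin-conjugating enzyme of the anaphase-promoting complex, at 0.70 (SE 0.33). Cohesin, which holds sister chromatids together and shares its SMC architecture with condensin, had a median of 0.31 over 9 genes, 7 positive. Smc3, a cohesin ATPase, had 0.80 (SE 0.26), Pds5a, a cohesin regulator, 0.93 (SE 0.34), and Wapl, which releases cohesin, 0.46 (SE 0.28). None of the 9 passed limma's test. At unadjusted p under 0.05 there were 2, both higher, beside the same 2.55%. With the block 3 were higher and 0 lower, beside the same 7.77% and 9.14%. All Rb-null arrays stood above all control arrays in 2 of the 9 (22.2%, against 5.13%) and below in 0 (against 4.78%). In each pair 5 were higher (55.6%, against 18.4%) and 1 lower (against 24.1%).

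The transport kinesins carry cargo in cells that do not divide as well. Of 21, 17 were tested, with a median of 0.07 and 10 positive. Only 1 was higher in each pair (5.88%, against 18.4% of all tested genes). Kif5a had -0.61 (SE 0.38), Kif3a -0.41 (SE 0.27) and Kif3c 0.44 (SE 0.34). General cytokinesis and abscission genes outside the 34, such as septins, myosin light chains and ESCRT-III subunits, numbered 22. Their median was -0.16, with 8 positive and 9 lower in each pair, against 24.1% of all tested genes. Of these 22 genes, Arf6, a small GTPase of membrane traffic, had 1.34 (SE 0.62). The myosin light chain Myl12b had -0.63 (SE 0.30) and the ESCRT-III subunit Chmp1a -0.62 (SE 0.30). In both lists limma called 0 genes and 0 had an unadjusted p under 0.05 without the block. Among all 13232 tested genes 337 higher and 200 lower ones had such a p. With the block the transport kinesins again had 0. The 22 other genes then had 2 higher and 5 lower, beside 7.77% and 9.14% of all tested genes. Rb-null arrays all stood above the controls in 1 of the 22 and below in 3, against 5.13% and 4.78%. For the transport kinesins these counts were 0 and 1.

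Markers of other marrow cells mostly had negative values, none past limma's adjusted test. All 15 measured of 18 granulocyte markers were negative, with a median of -0.49 and pair medians of -0.75, 0.00 and -0.68, and their summed intensity was 38799 to 58239 on control and 28392 to 57708 on Rb-null arrays. Macrophage markers had a median of -0.33 over 11 genes (9 negative; sums of 1842 to 3050 and 1498 to 1911) and B cell markers -0.32 over 8 genes (7 negative; sums of 575 to 909 and 352 to 547). T and NK cell markers had -0.08 over 5 genes, megakaryocyte markers -0.29 over 4, early progenitor markers 0.19 over 9, and erythroid markers 0.02 over 15. No marker was at 0 on every array. The part of these cells in the mitotic gene values was not tested.

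**Figure D5:**
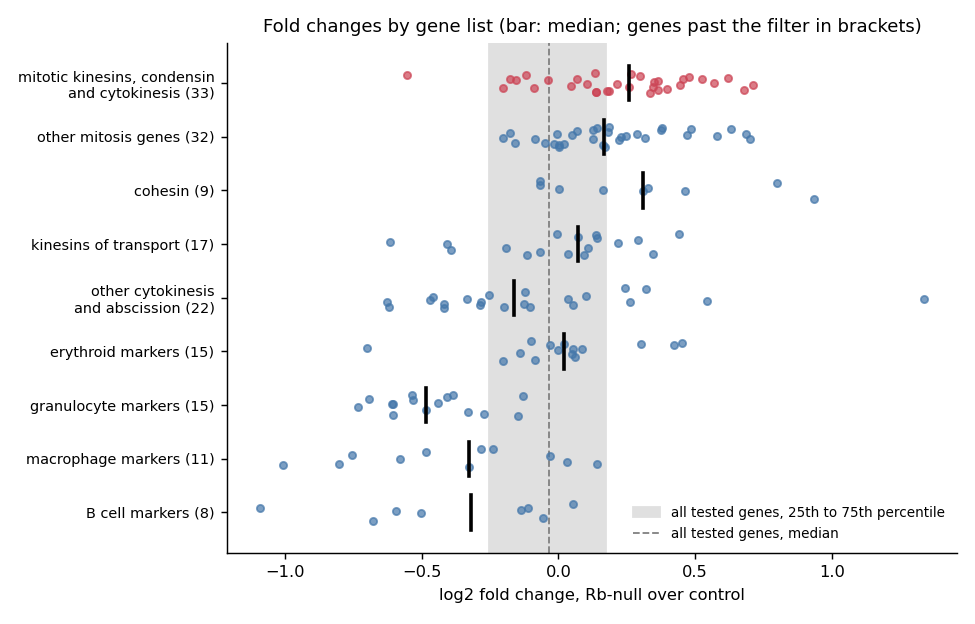
Log2 fold change of Rb-null over control for the genes of each list past the filter, with the list median as a black bar. The grey band is the 25th to 75th percentile of all 13232 tested genes (-0.25 to 0.17) and the dashed line their median (-0.04). The medians of the mitotic kinesin, condensin and cytokinesis genes (0.26) and of cohesin (0.31) lie right of the band. Those of granulocyte (-0.49), macrophage (-0.33) and B cell (-0.32) markers lie left of it. Markers of T and NK cells, megakaryocytes and early progenitors are not shown.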

How the data were processed

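The authors deposited 1 intensity per probe set and array, on a linear scale and never negative. The labels do not say how the scans were summarised or scaled. Per the labels, RNA isolation used Trizol and QIAGEN columns, and the label was biotin. Of 45101 probe sets, 64 controls, 4 empty ones and 1 with a value above a 16-bit scanner's range were left out. GEO's platform annotation gave 34941 of the remaining 45032 a single symbol, 932 several and 9159 none. Values were taken as log2(value + 16) and quantile normalized, probe sets above the 40th percentile of the mean were kept, and the brightest probe set stood for its gene. R 4.3.3 and limma 3.58.1 (2-sided moderated test, Benjamini-Hochberg adjustment over all 13232 genes, threshold 0.05) compared the groups, without and with the replicate number as a block. Standard errors and adjusted p are from the fit without the block unless stated. These errors include the spread between replicate numbers. With the block the SE was 0.15 for Mki67 (0.24 without) and 0.15 for Ect2 (0.63 without). The fold changes of further probe sets come from a fit over all probe sets. The exact permutation test of 3 against 3 cannot go below p = 0.1 and was not used. The number of arrays limits the precision. Groups and numbers came from the sample titles. That numbers pair the arrays rests on correlating deviations from the group means (same number, lowest 0.615; different numbers, highest 0.0370). With 3 arrays a group these deviations sum to 0, so the correlations are not independent of each other. Every listed gene is named. Full values were given for genes without overlap and the gene with the smallest p of each role, and up to 3 genes of each other mitosis list by p. The fold change of Ncaph2 was added because it is a condensin subunit. Members and lists were chosen with earlier results of these data known. Leaving out an array kept the normalization, filter and probe sets.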

Additional observations from a re-analysis of the deposited data

How the results depend on the processing

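With 17 alternatives (1, without _s_at and _x_at probe sets, chosen after seeing the data), limma called 0 of the listed genes under every one. Over all genes it called 2 with an offset of 64 and 3 with array weights. With the replicate block 0 genes were called, of the listed or of all, and the median of the listed genes was 0.26. That median was 0.33 on deposited values without quantile normalization, 0.33 with arrays scaled to a common median, and 0.30 with the mean over probe sets. Leaving out 1 array at a time it ran from 0.10 to 0.38, positive genes from 20 to 29, and genes without overlap from 7 to 13. The highest, 13, came without Rb-null replicate 3, and 13 were also found without both arrays numbered 3. Fewer arrays make lack of overlap easier to meet.

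The sign held under all alternatives for 21 of the 33 genes. With the mean over probe sets it turned for Kif20b (0.039), Kif23 (0.090), Ckap5 (0.16), Tacc3 (-0.053) and Cep55 (0.055). With array weights it turned for Kif23 (0.022) and Ncapg (0.087), and without both arrays numbered 3 for Kif23 (0.030) and Ncapg (0.15). With 1 array left out it turned at least once for Tacc3 from -0.085 to 0.19, Cep55 from -0.52 to 0.13, Kif20b from -0.42 to 0.27, Kif18a from -0.20 to 0.63, Kif23 from -0.24 to 0.13, Hmmr from -0.11 to 0.26, Ckap5 from -0.50 to 0.042, Smc2 from -0.22 to 0.32, Ncapd3 from -0.33 to 0.68, Anln from -0.15 to 0.49, Ect2 from -0.40 to 0.70 and Ncapg from -0.37 to 0.30. The cause was not tested.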
